A study of Mus musculus with 18 samples.

Results

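Cumulus cells are the somatic cells that surround the oocyte in the ovarian follicle. Their RNA at 4 h after the hormone hCG (human chorionic gonadotropin) was compared with their RNA at 0 h, across all genes. Of the 18 libraries of the series, 6 belong to this comparison: 3 titled as cumulus cells at 0 h and 3 titled as cumulus cells at 4 h. Per the labels both groups came from wild-type (WT) mouse ovaries, and the contrast between them is the time after hCG. Whether anything else differed between them cannot be told from the labels. The strain, the age, the hormone dose and the number of animals behind a library are not in the labels. Each p-value therefore reflects how far these particular libraries differ, a spread that could be technical. The other 12 libraries hold cumulus cells at 12 h and mural granulosa cells, which line the follicle wall, at 0, 4 and 12 h. Mural libraries of 0 h and 4 h are used below for 1 comparison of the cell types. Libraries were grouped by title, because 8 of the 9 titled as cumulus carry the mural cell type in another label and 1 carries none.

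hCG acts on the luteinizing hormone receptor, which cumulus cells carry little of. Mural cells respond first and release EGF-like growth factors, which bind the EGF receptor of cumulus cells and activate the ERK kinases. Cumulus cells then make the hyaluronan synthase HAS2 and proteins that crosslink hyaluronan, and the cumulus swells into a sticky matrix. This swelling is called expansion, and it is needed for ovulation and fertilization. Oocyte factors such as GDF9 and BMP15 keep cumulus cells able to expand.

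The promoters of 4 genes that rose are shown first, since cyclic AMP signalling downstream of gonadotropins acts on DNA through the cyclic AMP response element (CRE). The full element reads TGACGTCA and its half-site TGACG, searched on both strands, so that a full element also counts as a pair of overlapping half-sites. Each sequence is the 250 bases before the RefSeq start, read 5′ to 3′ on the gene's strand (GRCm38.p6), with half-sites in capitals. Areg encodes the EGF-like ligand amphiregulin, Btc the ligand betacellulin, Nr4a1 an early nuclear receptor and Cebpb a transcription factor needed for ovulation and luteinization.
Areg, chr5:91139349-91139598, plus strand: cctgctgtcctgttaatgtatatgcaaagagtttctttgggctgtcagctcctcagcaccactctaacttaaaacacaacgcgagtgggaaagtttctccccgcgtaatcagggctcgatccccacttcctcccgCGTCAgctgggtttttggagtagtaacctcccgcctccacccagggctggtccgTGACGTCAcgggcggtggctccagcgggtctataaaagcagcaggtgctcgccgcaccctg
Btc, chr5:91402995-91403244, minus strand: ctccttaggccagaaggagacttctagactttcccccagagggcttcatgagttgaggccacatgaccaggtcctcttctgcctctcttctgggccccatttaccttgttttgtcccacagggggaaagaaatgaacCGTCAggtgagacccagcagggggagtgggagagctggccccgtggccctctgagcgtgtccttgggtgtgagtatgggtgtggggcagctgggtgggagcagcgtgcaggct
Nr4a1, chr15:101266596-101266845, plus strand: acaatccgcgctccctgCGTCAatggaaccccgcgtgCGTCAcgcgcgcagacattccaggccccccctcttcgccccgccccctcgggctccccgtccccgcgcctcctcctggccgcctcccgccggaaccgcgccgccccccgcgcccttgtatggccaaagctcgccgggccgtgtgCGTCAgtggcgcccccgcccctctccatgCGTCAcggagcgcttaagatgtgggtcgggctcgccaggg
Cebpb, chr2:167688665-167688914, plus strand: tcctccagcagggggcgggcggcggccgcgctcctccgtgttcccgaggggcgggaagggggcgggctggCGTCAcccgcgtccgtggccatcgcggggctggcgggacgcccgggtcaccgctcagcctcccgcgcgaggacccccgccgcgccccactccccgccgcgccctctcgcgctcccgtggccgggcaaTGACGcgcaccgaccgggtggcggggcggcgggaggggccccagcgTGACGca
Among these 4 promoters, only that of Areg held a full element, at position -61 from the start, with another half-site at -115. The Nr4a1 promoter held 4 half-sites (-233, -213, -69 and -40), the Cebpb promoter 3 (-180, -53 and -7) and the Btc promoter 1 (-113). Of 32851 promoters, 17.8% held a half-site and 1.55% a full element. A half-site was in 26.3% of the promoters of genes that rose, 22.8% of those that fell and 23.9% of those not called. The AP-1 element TGANTCA, bound by FOS and JUN proteins, was in 6.75% of all promoters and in 6.10, 4.34 and 4.68% of these sets. Of the 21 key genes that rose, 17 had a promoter in the table and 7 of them a half-site in at least 1 promoter. Of the key genes that did not rise, Fos, Cyp11a1 and Gja1 also had a half-site, while Egfr, Fshr, Cyp19a1, Lhcgr and Npr2 had none. These are counts of genes, some with several promoters, while the shares above are of promoters. Windows for Pgr, Ptgs2, Ptx3, Tnfaip6 and Dusp6 held no half-site, and that of Tnfaip6 held an AP-1 element at -142. A match is only a match of letters.

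The 6 libraries held 34.4 to 44.7 M counts (M for mega), and levels are given as counts per M counts (CPM). A level of 0 allows up to 3 counts, which is 0.0600 to 0.0910 CPM in a library. Granulosa genes were abundant: the inhibin gene Inha was at 4399 ± 827 CPM at 0 h (SD, n = 3) and the FSH receptor gene Fshr at 298 ± 15.4. Genes of mural cells were low, with the LH receptor gene Lhcgr at 8.52 ± 5.7 against 662 ± 83.6 CPM in mural cells at 0 h, and Cyp11a1 at 11.1 ± 7.06 against 734 ± 88.8. Markers said to be higher in cumulus cells were less clear: Npr2 was at 959 ± 68.2 against 631 ± 50.5 CPM, but Slc38a3 was at 119 ± 26.7 against 146 ± 13.5 and Amh at 167 ± 66.4 against 164 ± 23.8.

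Oocyte RNA differed between these libraries within both groups. The summed level of 18 oocyte markers was 542, 2567 and 2693 CPM at 0 h, in the order of replicates 1, 2 and 3, while at 4 h it was 3023, 1582 and 9723 CPM. None of the 18 was at 0 or was called, and their median log2 change was 1.26. Replicate 1 of 0 h was the lowest and replicate 3 of 4 h the highest. Other marker sums stayed small: theca 90.2 to 113 CPM at 0 h and 70.0 to 122 at 4 h, endothelial 18.3 to 26.1 and 29.0 to 55.5, smooth muscle 7.91 to 27.1 and 16.3 to 96.1, macrophage and T cell 9.37 to 16.9 and 7.31 to 17.1, erythroid 8.73 to 17.7 and 5.98 to 9.96, neutrophil 0.0273 to 0.900 and 1.28 to 2.47. The neutrophil genes Elane, Retnlg and Ngp had 0 counts in all 6. In these bulk samples, fewer cells of a type and less RNA per cell cannot be told apart. Replicate 1 of 0 h and replicate 3 of 4 h are called the 2 libraries that stand apart, and counts below are also given without them, or without single libraries, where that moves them by over 1.5 times.

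**Figure D1:**
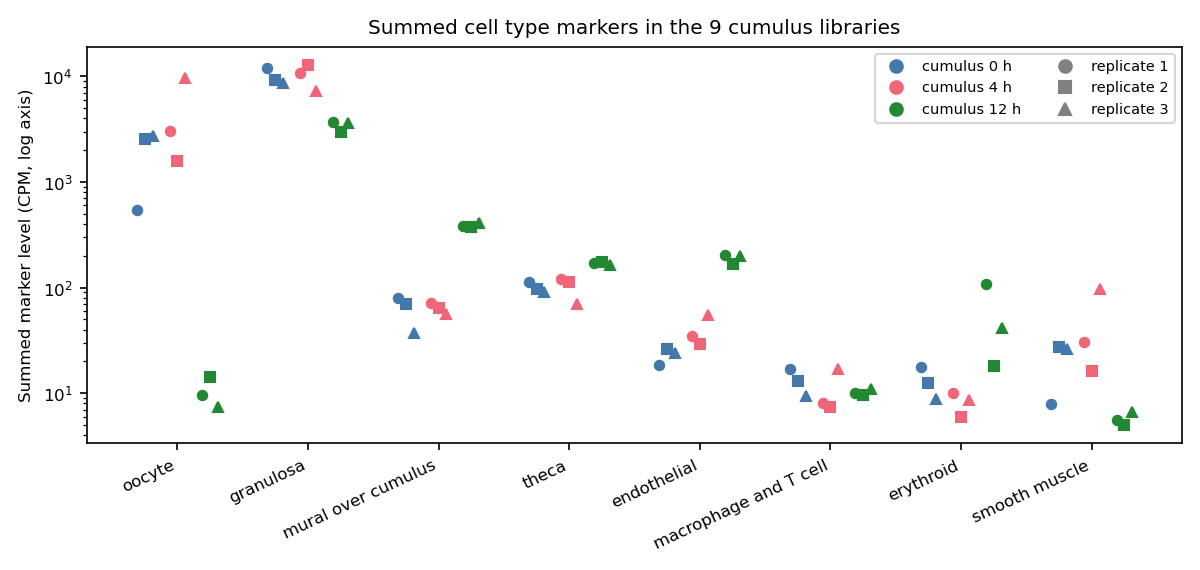
Summed CPM of cell type markers (log axis) in the 9 cumulus libraries, each symbol 1 library and each colour a time. The oocyte sum runs from 542 to 9723 CPM over the 0 h and 4 h libraries and lies below 15 CPM at 12 h, while the granulosa sum runs from 7263 to 12784 CPM over the 0 h and 4 h libraries.

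Cumulus RNA was broadly different at 4 h. Of 17851 genes tested, 5509 were called at an adjusted p under 0.05 (30.9%): 2471 rose (13.8%) and 3038 fell (17.0%). At least 2-fold changes were found for 1619 of the rises and 1942 of the falls, and at least 16-fold changes for 338 and 106. The large changes were thus more often rises. The median log2 change of all genes was 0.08. The first principal component held 71.6% of the variance and separated the times, at -81.1 to -56.0 for 0 h and 53.1 to 81.1 for 4 h. Along the second, with 22.4%, replicate 3 of 4 h (-54.4) lay far from replicates 1 (23.2) and 2 (50.4). Without the 2 libraries that stand apart, 3877 genes rose and 3956 fell. With library totals in place of the scaling used here, 37.4% of the called genes were rises, against 44.9%.

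**Figure D2:**
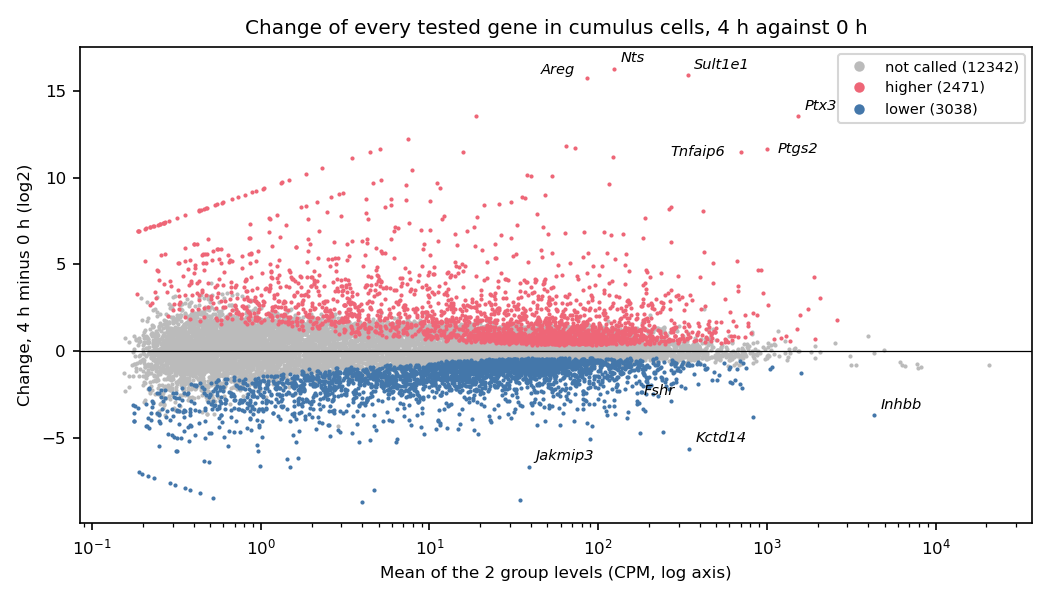
Log2 change from 0 h to 4 h against the mean level (CPM, log axis) of each of 17851 tested genes, with the 2471 that rose and the 3038 that fell in colour. The largest changes at high levels are rises, and the slanted rows of points are genes with 0 counts in 1 group, whose fitted change is no bound.

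The EGF-like ligands were among the largest rises. All values below are in the order of replicates 1, 2 and 3. Log2 changes carry an approximate SE, the size of the change divided by the square root of its F statistic. Areg had 0 counts in the 3 libraries of 0 h and 157, 222 and 133 CPM at 4 h, at least 7301.5-fold higher against a floor of 3 counts over the 0 h group (adjusted p = 0.000118). Ereg, the ligand epiregulin, was at 0.109, 0 and 0 CPM at 0 h and 124, 168 and 94.4 at 4 h (11.83 ± 0.71, adjusted p = 0.000133). These few counts of Ereg at 0 h were all in replicate 1. Btc went from 3.14, 3.62 and 2.04 to 937, 995 and 564 CPM (8.1 ± 0.39, adjusted p = 6.88e-05), and Epgn, the ligand epigen, rose by 6.48 ± 0.9 (adjusted p = 0.00212). Replicate 3 of 4 h was the lowest of its group for all 4 ligands. The 4 genes lie on chromosome 5 of GRCm38 between 91027464 (start of Epgn) and 91402994 (end of Btc), with Ereg at 91074622 to 91093646 and Areg at 91139599 to 91148432.

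No other member of this system was called higher. Their receptor gene Egfr fell from 80.2, 65.4 and 69.7 to 30.4, 26.9 and 54.1 CPM (-1.0 ± 0.27, adjusted p = 0.0279). That call was lost without any 1 of the 0 h libraries or without replicate 1 of 4 h (adjusted p 0.0582, 0.0646, 0.0732 and 0.0798). Erbb2, a partner of the receptor, fell (-0.69), as did the ligand gene Hbegf (-1.46). Of the 10 genes of the list 4 rose, 3 fell and 3 were not called, with a median log2 change of 0.76 (0.15 without the 2 libraries that stand apart, with the same counts). Without replicate 1, 2 or 3 of 0 h, 1 fell. Egf (1.5), Tgfa (-0.24) and the shedding protease gene Adam17 (0.03) were not called. Counts of this and the later lists stand beside 13.8% of all tested genes that rose and 17.0% that fell. No list was tested as a set.

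Feedback inhibitors of ERK signalling rose with the ligands. Of 12 measured, 9 rose and none fell, with a median of 2.84. Dusp6, a phosphatase of ERK, went from 1.69, 0.6 and 0.459 to 96.1, 131 and 73.3 CPM (6.75 ± 0.57, adjusted p = 0.000368). Dusp4, a nuclear phosphatase of the same family, rose from 0.0546, 0.16 and 0.184 to 55, 67.8 and 32 CPM (8.48 ± 0.49). Spry2 (3.66 ± 0.37) and Spred2 (3.4 ± 0.18), which restrain the pathway upstream of ERK, rose as well (adjusted p = 0.000656 and 9.33e-05). Errfi1, an inhibitor of the EGF receptor, went from 20.4 ± 3.55 to 164 ± 31.3 CPM. Dusp2, Spry1 and Spry4, at 2.32, 1.24 and 1.30, were not called.

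Immediate early genes, most of them for transcription factors and most switched on without new protein synthesis, divided into 12 that rose and 9 not called, with a median of 2.45. In all 18 rose and the median was 3.70 without the 2 libraries that stand apart. Egr3 went from 0.136, 0 and 0 to 169, 172 and 98.1 CPM (11.72 ± 0.77, adjusted p = 0.000167). Fosl1, an AP-1 subunit, rose from 1.36, 0.98 and 1.61 to 61.5, 73.8 and 47.7 CPM (5.48 ± 0.28), and Ier3 from 5.73, 5.96 and 5.93 to 254, 294 and 186 (5.33 ± 0.22). Nr4a3 (6.37 ± 0.78) and Nr4a1, which went from 27.1, 20.4 and 15.5 to 129.5, 214 and 113 CPM (2.81 ± 0.32, adjusted p = 0.000941), rose too. The groups of each of these genes are well apart.

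For Fos and Egr1, the classical members, 1 library was high at 0 h. Fos was at 341, 40.2 and 27.8 CPM at 0 h and 107, 180.3 and 62.2 at 4 h (-0.27 ± 0.96, adjusted p = 0.846). Egr1 was at 353, 16.7 and 15.5 and 606, 1269 and 286 CPM (2.45 ± 1.31, adjusted p = 0.209). In both, replicate 1 of 0 h lay within or above the range of 4 h, so the groups overlap. Without it Egr1 rose, by 5.29 (adjusted p = 0.00525), and Fos was at 1.59 (adjusted p = 0.0577). The oocyte sum was lowest in the same library. With that sum as a covariate over the 6 libraries both were called higher. Fos rose by 1.72 (adjusted p = 0.015) and Egr1 by 5.33 (adjusted p = 0.00831). Fos was not called with the covariate over all 18 libraries (1.63, adjusted p = 0.0786). Nor was it with voom quality weights (1.40, adjusted p = 0.116) or a replicate block (0.58, adjusted p = 0.651). Egr1 was called higher with the first 2 of these settings (adjusted p = 0.000759 and 0.00303). Without the 2 libraries that stand apart both were called, by 2.03 (adjusted p = 0.00014) and 5.81 (adjusted p = 1.2e-06). That fit has 2 libraries per group and leaves out the 0 h library that was high, so it cannot decide whether the genes rose. The part of oocyte RNA was not tested.

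Transcription regulators of ovulation rose in 11 of 17 cases, 1 fell and 5 were not called (median 1.77). Pgr, the progesterone receptor, went from 0.191, 0.08 and 0.161 to 84.1, 82.4 and 44.5 CPM (8.89 ± 0.44, adjusted p = 7.41e-05). Runx2 rose from 1.47, 1.52 and 1.1 to 195, 161 and 133 CPM (6.84 ± 0.24) and Runx1 from 42.6, 50.4 and 45.9 to 469, 597 and 294 (3.24 ± 0.28, adjusted p = 0.0003). Replicate 3 of 4 h was the lowest of its group in all 3. Crem, a factor that binds the CRE, rose by 4.35 ± 0.31, and Etv5, an ETS factor, by 4.47 ± 0.76. Cebpb went from 168, 159 and 143 to 485, 428 and 348 CPM (1.38 ± 0.17, adjusted p = 0.00124), a smaller log2 change than those above. The 1 member that fell was Id3 (-1.64), an inhibitor of helix-loop-helix factors.

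Genes of the expansion matrix gave a few very large rises. Ptx3, the pentraxin that links hyaluronan chains, went from 0.136, 0.3 and 0.276 to 3598, 3369.7 and 2260.4 CPM (13.56 ± 0.44, adjusted p = 3.08e-05). Tnfaip6, which transfers heavy chains of serum proteins onto hyaluronan, went from 0.382, 0.48 and 0.551 to 1312, 1921 and 999 CPM (11.48 ± 0.42, adjusted p = 3.16e-05). Has2 went from 2.84, 1.48 and 1.01 to 505, 726 and 351 CPM (8.18 ± 0.55, adjusted p = 0.000166). For these genes the lowest library of 4 h was more than 100 times the highest of 0 h. Vcan, the hyaluronan-binding proteoglycan versican, was already at 251, 178 and 178 CPM at 0 h and rose to 1265, 1107 and 654 (2.27 ± 0.29, adjusted p = 0.0014). Cd44, a hyaluronan receptor, rose from 6.99, 2.92 and 4.07 to 29.4, 29.9 and 17.8 CPM (2.42 ± 0.38) and Fn1, fibronectin, by 2.51 ± 0.25.

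Of 15 matrix genes measured 8 rose, 2 fell and 5 were not called, with a median of 0.81. The median was 2.39 without the 2 libraries that stand apart and 2.16 without replicate 1 of 0 h alone, and 8 rose in either case. The number that fell was 1 without replicate 1 or 3 of 0 h or replicate 2 of 4 h and 0 without replicate 2 of 0 h. Those that fell were Hyal1 (-1.03), which degrades hyaluronan, and Itih5 (-1.22). Genes of the heavy chains themselves, Itih1 and Itih3, and Ambp were too low to test, at 0 to 0.104 CPM. Hapln1, a link protein, was not called (-0.17).

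The hyaluronan precursor UDP-N-acetylglucosamine comes from the hexosamine pathway. Ugdh, which makes the other precursor, UDP-glucuronate, went from 57.9, 48.2 and 50.1 to 389, 411 and 234 CPM (2.68 ± 0.24, adjusted p = 0.000358). Gfpt2, the entry enzyme of the hexosamine pathway, went from 76, 66.1 and 65 to 420.0, 549 and 287 CPM (2.55 ± 0.26, adjusted p = 0.000524). The transporter gene Slc35d1 (1.12 ± 0.22) and Uap1 (1.05 ± 0.22), the last step to UDP-N-acetylglucosamine, rose less. The call of Uap1 was lost without replicate 2 or 3 of 0 h (adjusted p 0.0536 and 0.0579). Of 11 genes 4 rose, 1 fell (Nagk, -0.97) and 6 were not called, with a median of 0.18. Without the 2 libraries that stand apart 6 rose and 2 fell (median 0.40), and 2 fell without replicate 2 or replicate 3 of 4 h alone.

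**Figure D3:**
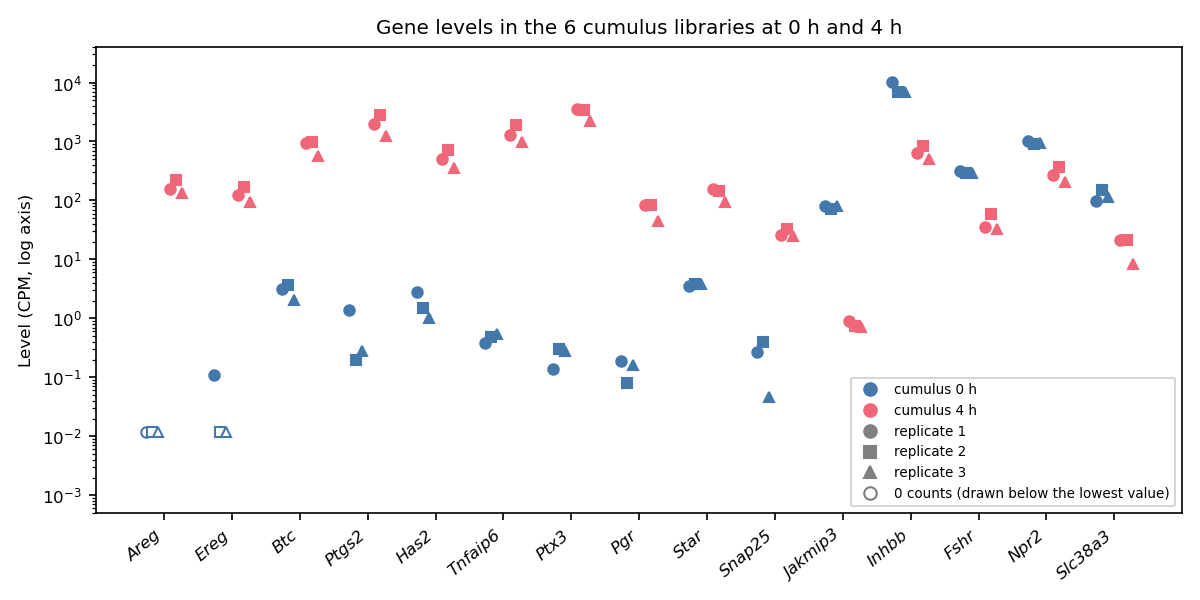
Levels (CPM, log axis) of 15 genes in the 3 libraries of 0 h and the 3 of 4 h, with open symbols for 0 counts. For each gene the 2 times do not overlap, and replicate 3 of 4 h is the lowest library of its group in each.

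Prostaglandin genes showed 1 very large rise. Ptgs2, the inducible cyclooxygenase, went from 1.36, 0.2 and 0.276 to 1993, 2771 and 1236 CPM (11.68 ± 0.94, adjusted p = 0.000318), and replicate 1 was the highest library of 0 h. Pla2g4a, the phospholipase that frees its substrate, rose from 78.4 ± 13.2 to 367 ± 66.2 CPM. The receptor genes Ptger2, which went from 1.31, 1.16 and 1.42 to 10.5, 9.74 and 6.64 CPM (2.74 ± 0.3, adjusted p = 0.000792), and Ptger4 (3.03 ± 0.21) also rose, as did the transporter gene Slco2a1 (4.04 ± 0.35). Hpgd, the enzyme that inactivates prostaglandins, fell from 117, 103 and 99.7 to 11.8, 17.4 and 4.83 CPM (-3.28 ± 0.45, adjusted p = 0.00232). The terminal synthase genes Ptges (-1.56) and Ptgis (-1.54) fell as well. In all 5 of 16 rose and 3 fell (median 1.04). Without the 2 libraries that stand apart 8 rose and 4 fell, and the median was 0.42.

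Proteases that remodel the follicle and their inhibitors rose in 10 of 19 cases and 1 fell (median 1.05). Without replicate 2 of 0 h 5 rose and without replicate 3 of 0 h 6, and 2 fell without the 2 libraries that stand apart or either 4 h replicate 2 or 3 alone. Plaur, the urokinase receptor, went from 0.0546, 0.08 and 0.322 to 73.8, 89.5 and 56.1 CPM (8.82 ± 0.57, adjusted p = 0.000149). Timp1, a metalloproteinase inhibitor, went from 4.31, 4.26 and 4.53 to 80.8, 91.9 and 66 CPM (4.14 ± 0.18, adjusted p = 4.55e-05). Adamts1, the protease that cleaves versican, went from 37.1, 21.2 and 23.8 to 85.1, 140.1 and 53.2 CPM (1.72 ± 0.39, adjusted p = 0.0163). Its call was lost without replicate 2 or 3 of 0 h (adjusted p 0.0681 and 0.0692). Adamts5, a related protease, went the other way, from 52, 41.4 and 42.6 to 4.85, 6.1 and 5.22 CPM (-3.12 ± 0.18, adjusted p = 0.000103).

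Cytokines and innate signals rose in 12 of 18 cases and fell in 2 (median 1.5). Without replicate 2 of 0 h 7 rose, and 1 fell without that library, replicate 3 of 0 h or replicate 1 of 4 h. The receptor gene Il1r1 went from 24.1, 22.8 and 23.9 to 370.0, 431 and 239 CPM (3.83 ± 0.25, adjusted p = 0.000133) and Cxcr4, the receptor of CXCL12, from 0.573, 0.54 and 0.115 to 23.1, 21.6 and 14.2 (5.53 ± 0.59). Ligand genes rose from near 0. Il6 went from 0.0819, 0.02 and 0 to 2.04, 1.18 and 0.722 CPM (5.2 ± 0.97, adjusted p = 0.00683) and Il11 from 0.355, 0.26 and 0.597 to 5.09, 8.13 and 3.56 (3.74 ± 0.51). Tnf, Il1a, Il1b and Ccl2 were too low to test. Nfkbia and Socs1, inhibitors of NF-kB and of cytokine signalling, fell (-0.93 and -0.78).

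Progesterone synthesis genes rose in 6 of 14 cases and fell in 2 (median 0.74). Star, the carrier that brings cholesterol into the mitochondrion, went from 3.49, 3.8 and 3.86 to 159, 147 and 92.4 CPM (5.11 ± 0.25, adjusted p = 7.74e-05). Fdx1, the ferredoxin that feeds electrons to the side chain cleavage enzyme, went from 42, 31.5 and 27 to 1246, 1669 and 952 CPM (5.22 ± 0.31, adjusted p = 0.000114). Cyp11a1, which encodes that enzyme, overlapped between the times, at 14.3, 16 and 3.03 and 29.8, 16 and 11.8 CPM (0.74 ± 0.63, adjusted p = 0.403). Sgk1, a kinase gene, rose from 17.7, 12.1 and 15.3 to 100.1, 124 and 95.2 CPM (2.78 ± 0.2). Nr5a2 (-1.87 ± 0.18) and Nr5a1 (-1.79), nuclear receptors that drive steroidogenic genes, fell.

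Genes of the growing follicle fell in 6 of 15 cases and rose in 2 (median -0.64). Without the 2 libraries that stand apart 7 fell and 4 rose, as without replicate 3 of 4 h alone. None rose without replicate 2 of 0 h or replicate 1 or 2 of 4 h, and 1 rose without replicate 1 or 3 of 0 h. Inhbb, the inhibin beta B subunit, went from 10259, 6943 and 6889 to 648, 829 and 499.7 CPM (-3.66 ± 0.3, adjusted p = 0.000249). Fshr went from 316, 292 and 287 to 34.8, 57.9 and 32.6 CPM (-2.88 ± 0.25, adjusted p = 0.000313), and Hsd17b1, which makes estradiol from estrone, fell (-1.75 ± 0.21). Inhba, the beta A subunit, was at 2737 ± 569 and 5262 ± 1598 CPM and not called. Aromatase, Cyp19a1, was at 93.6, 70 and 83 and 60.3, 111 and 66.6 CPM, with the times overlapping (-0.1 ± 0.25, adjusted p = 0.781). Without replicate 2 of 4 h, the highest, it fell (-0.51, adjusted p = 0.0463). Lhcgr was not called, at 13.7, 9.44 and 2.41 and 4.67, 1.18 and 1.94 CPM (-1.76 ± 0.74, adjusted p = 0.118). It was called lower with DESeq2 (-1.72, adjusted p = 0.0309), with all 18 libraries in the fit (-1.67, adjusted p = 0.00583) and with oocyte-linked genes left out (-1.63, adjusted p = 0.0495). Among 10 granulosa markers, 6 fell, with Foxl2, a factor of granulosa identity, going from 474 ± 63.6 to 67.7 ± 18.5 CPM (-2.86 ± 0.24).

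Cholesterol synthesis genes fell in 9 of 23 cases and none rose (median -0.22). Mvd went from 108, 74.7 and 77.4 to 22.7, 16.9 and 18.8 CPM (-2.21 ± 0.2, adjusted p = 0.000334) and Mvk, an earlier step of the mevalonate pathway, from 179.7, 134 and 135 to 46.2, 72.3 and 44.5 (-1.51 ± 0.24). Of the list 7 rose and 10 fell without the 2 libraries that stand apart. Without replicate 2 or replicate 3 of 0 h 4 fell, and without replicate 3 of 4 h 2 rose and 10 fell. Scarb1, the receptor that takes up cholesterol from high-density lipoprotein, rose from 357 ± 43.6 to 815 ± 184 CPM.

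Neuropeptide and secretory genes gave several of the largest rises. Nts, the neuropeptide neurotensin, had 0 counts at 0 h and 260.3, 307 and 179 CPM at 4 h, at least 10762.5-fold higher against the same floor (adjusted p = 0.000118). Pdyn, which encodes the opioid precursor prodynorphin, had 0 counts and 36.6, 52.2 and 25.1 CPM, at least 1625-fold higher. Snap25, a SNARE protein of vesicle fusion, went from 0.273, 0.4 and 0.0459 to 26.3, 32.2 and 25.3 CPM (6.78 ± 0.61, adjusted p = 0.00038). Vgf, a secreted peptide precursor, had 0 counts and 2.85, 4.01 and 1.06 CPM, at least 113.5-fold higher. These genes were at or near 0 in each library of 0 h. Of the 23 genes of regulated exocytosis 7 rose and 1 fell (Cplx2, -1.5), with a median of 1.05, which was 0.05 without the 2 libraries that stand apart. Without these 8 rose and 2 fell, and 2 fell without replicate 2 of 4 h. The SNARE genes Stx1a and Vamp2 were not called (0.32 and -0.31).

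Sult1e1 and Ifi202b completed the 10 largest rises. Sult1e1, the estrogen sulfotransferase, had 1 count at 0 h and 721, 845 and 481 CPM at 4 h, a ratio of 88650 with a 95% counting interval from 15910.5 to 3501530. Ifi202b, of an interferon-inducible family, had 1 count at 0 h and 31, 47 and 17.4 CPM, a ratio of 4081 (732 to 161250). Its family has close copies, which the counting of uniquely assigned reads could affect.

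Signals that hold the oocyte in meiotic arrest pass through cyclic GMP. Npr2, the receptor that makes it in cumulus cells, went from 1037, 910.2 and 930.2 to 266, 374 and 202 CPM (-1.82 ± 0.25, adjusted p = 0.00181). Nppc, its ligand, fell from 36.4 ± 10.5 to 7.81 ± 2.41 CPM. Npr3, the clearance receptor, rose from 0.819, 0.98 and 0.574 to 14.7, 21.2 and 7.92 CPM (4.15 ± 0.46), and the kinase gene Prkg2 by 4.94 ± 0.59. Of the phosphodiesterase genes, which degrade cyclic nucleotides, Pde10a rose from 2.51, 6.86 and 7.88 to 70.7, 93.7 and 103 CPM (3.9 ± 0.44), Pde4b by 4.4 ± 0.32 and Pde4d by 3.22 ± 0.18, while Pde3a (1.3) and Pde5a (0.04) were not called. Over 15 genes 6 rose, 4 fell and the median was 1.12. Without the 2 libraries that stand apart, the median was -0.03, with 6 and 5.

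Genes that depend on oocyte factors were mixed, with 4 of 15 higher and 5 lower (median -0.48). The median was 0.02 without the 2 libraries that stand apart, with 4 higher and 6 lower, and 2 were higher without replicate 1 of 0 h or replicate 1 of 4 h. Slc38a3, the amino acid transporter that feeds alanine to the oocyte, went from 96.1, 148 and 113 to 21.6, 21.2 and 8.39 CPM (-2.85 ± 0.39, adjusted p = 0.00231). Sfrp2, a Wnt antagonist, rose from 0.327, 0.04 and 0.0459 to 20.9, 18.8 and 13.3 CPM (7.01 ± 0.77), and Npr1 rose by 2.78 ± 0.64, a call lost without replicate 1 of 0 h or replicate 1 of 4 h (adjusted p 0.0626 and 0.0701). Amh, anti-Müllerian hormone, was not called, at 206, 204 and 90.3 and 118, 192 and 45.2 CPM (-0.54 ± 0.55, adjusted p = 0.475). Replicate 3 was the lowest of each group.

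Of 11 genes of gap junctions and other cell contacts 2 rose and 9 were not called, while 13.8% of all genes tested rose. Gja1, the main connexin between cumulus cells, was at 4014, 3130.3 and 2898 and 3171, 3369 and 2093 CPM (-0.27 ± 0.25, adjusted p = 0.433). Those that rose were Daam1 (1.32 ± 0.32, adjusted p = 0.0187) and Cdh2 (0.74 ± 0.22, adjusted p = 0.0423), neither of them a connexin gene. Daam1 follows the oocyte sum across the libraries, and its call was lost without replicate 1 or 2 of 0 h (adjusted p 0.0803 and 0.0547). That of Cdh2, N-cadherin, was lost without any 1 of the libraries except replicate 3 of 4 h (adjusted p 0.0746 to 0.158).

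Notch genes rose in 7 of 11 cases and 1 fell (median 1.65). The ligand gene Jag1 went from 6.03, 19.5 and 15.7 to 391, 391 and 334 CPM (4.71 ± 0.45, adjusted p = 0.000544). The receptor genes Notch2, from 59.4, 48.4 and 46.7 to 411, 405 and 263 CPM (2.75 ± 0.22), and Notch1 (2.83 ± 0.38) rose beside it. Targets moved both ways: Heyl (1.65), Hes1 (1.73) and Hey1 (0.95) rose and Hey2 fell (-2.43).

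Of 16 retinoid and Wnt genes, 5 rose and 2 fell (median 0.58), and 9 rose and 2 fell without the 2 libraries that stand apart. Without any 1 library other than replicate 1 of 0 h, and with library totals, 3 rose, and 1 fell without replicate 2 of 0 h. Wnt11, a Wnt ligand, went from 0.109, 0.08 and 0 to 83.7, 89.9 and 54.5 CPM (10.15 ± 0.58, adjusted p = 0.000114). Aldh1a3, which makes retinoic acid, rose from 0.246, 0.14 and 0.39 to 45.2, 34.2 and 20.2 CPM (6.95 ± 0.5). Sfrp4 rose by 5.44 ± 0.66, while Stra6, a retinol carrier, fell (-2.52).

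Hypoxia and angiogenic signals were divided, with 4 of 17 higher, 4 lower and a median of 0.59 (7 and 3, with a median of 0.20, without the 2 libraries that stand apart). Over all genes tested 13.8% rose and 17.0% fell. Edn1, endothelin 1, rose from 0.164, 1.06 and 1.06 to 7.11, 13.8 and 8.45 CPM (3.62 ± 0.68) and Egln3, an oxygen sensor, by 3.39 ± 0.43. Bnip3 fell from 135, 101 and 96.6 to 12.4, 16.5 and 13.1 CPM (-3.03 ± 0.2, adjusted p = 0.000133). Vegfa was not called, at 348 ± 29.6 and 420.2 ± 126 CPM. Kdr, which marks endothelial cells, rose from 0.164, 0.58 and 0.413 to 3.63, 3.49 and 2.33 CPM. The summed endothelial markers were at 18.3 to 26.1 CPM at 0 h and 29.0 to 55.5 at 4 h, with Cdh5 up (1.48), Egfl7 down (-1.17) and Cldn5 and Emcn near 0, and their part in this was not tested.

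Glycolysis genes fell in 8 of 19 cases and 2 rose (median -0.62), and 5 fell without replicate 3 of 0 h. Pfkl went from 493, 389 and 388 to 127, 143 and 91.9 CPM (-1.86 ± 0.21, adjusted p = 0.000859) and Pfkm, another phosphofructokinase gene, fell as well (-1.73 ± 0.17). The lactate transporter genes Slc16a1 (-1.26) and Slc16a3 (-1.2) fell too. The glucose transporter gene Slc2a1, in contrast, rose from 84.9, 58.5 and 64.5 to 229, 288 and 179 CPM (1.7 ± 0.23), with Hk2 (1.4), which traps glucose in the cell.

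Part of the proliferation genes fell. Of 20 genes of S phase, 10 fell and 1 rose (median -0.53), and 16 fell without the 2 libraries that stand apart. Without replicate 3 of 0 h 5 fell, without replicate 2 of 0 h 7, and none rose without either or without replicate 1 of 4 h. Lig1, the replicative ligase, went from 213, 188 and 185 to 82.7, 96.6 and 76.4 CPM (-1.25 ± 0.15, adjusted p = 0.00103), and Mcm6, of the replicative helicase, from 237, 201 and 193 to 91.2, 111 and 98.7 (-1.12 ± 0.15). Pcna, the sliding clamp, rose (0.83). Of 20 mitosis genes 7 fell and none rose (median -0.26; 13 fell without the 2 libraries that stand apart, 12 without replicate 3 of 4 h and 4 without replicate 2 or 3 of 0 h), with Ccnb2, cyclin B2, going from 168, 129 and 135 to 47.4, 54.4 and 67.1 CPM (-1.41 ± 0.18). Cell cycle brakes rose in part: Cdkn1a, the inhibitor p21, went from 8.71, 9.96 and 10.5 to 61.4, 110.1 and 46.2 CPM (2.85 ± 0.34, adjusted p = 0.00109) and Btg1 rose by 2.6 ± 0.3. Ccnd2, cyclin D2, fell (-1.03). Of the 13 genes of that list 5 rose and 3 fell.

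Genes of the unfolded protein response rose in 6 of 17 cases and fell in 2 (median 0.26). Atf4, a factor of the stress response to amino acid shortage, went from 185, 139.8 and 152 to 386, 467 and 335 CPM (1.27 ± 0.19, adjusted p = 0.00257). Hspa5, the main chaperone, was not called (0.03). Of the list 10 rose and 2 fell without the 2 libraries that stand apart. With 1 library left out 2 rose without replicate 1 of 0 h and 1 without replicate 2 or 3 of 0 h or replicate 1 or 2 of 4 h, and 1 fell without replicate 2 or 3 of 0 h. None of 24 ribosomal protein genes was called (median -0.23), but 3 fell without replicate 2 of 4 h and 2 with library totals. Of 13 mitochondrially encoded genes only mt-Nd6 (-0.93) and mt-Atp8 (-0.9) fell, with a list median of -0.82. Leaving out any 1 library of 0 h ended the call of mt-Nd6 (adjusted p 0.0554, 0.0546 and 0.0663), and that of mt-Atp8 was lost without replicate 2 of 0 h or replicate 2 of 4 h (adjusted p 0.065 and 0.0512). The number that fell depended on the setting: 9 without the 2 libraries that stand apart, 12 with library totals, 10 with DESeq2, 13 with all 18 libraries in the fit and 0 to 4 with 1 library left out (0 without replicate 2 of 0 h, 4 without replicate 3 of 4 h). Mitochondrial genes took 8.40 to 12.6% of the counts at 0 h and 4.29 to 6.13% at 4 h.

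**Figure D4:**
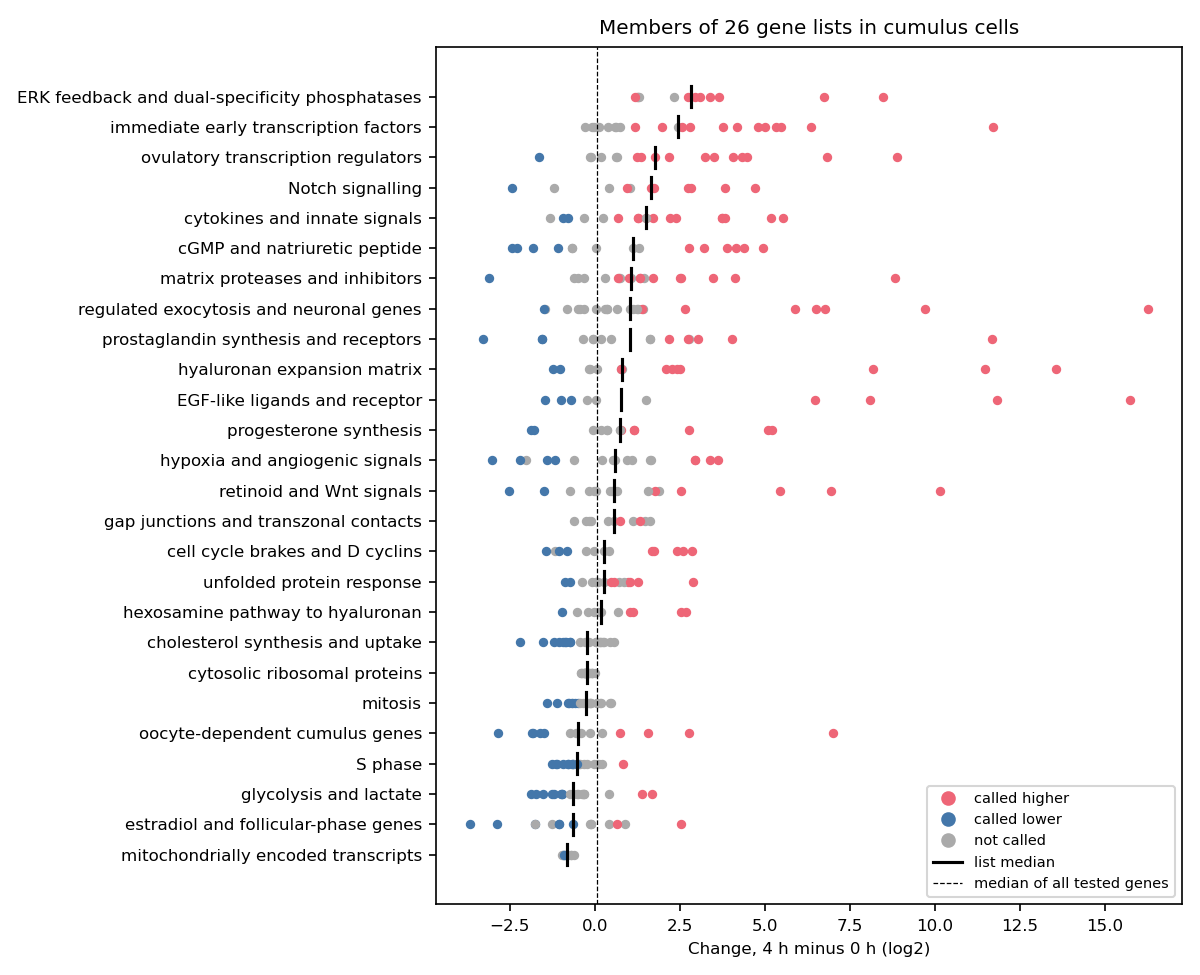
Log2 change from 0 h to 4 h of each tested member of 26 gene lists, with list medians as black bars, called members in colour and the median of all tested genes (0.08) as a dashed line. Feedback inhibitors of ERK have the highest median (2.84) and mitochondrially encoded genes the lowest (-0.82).

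The largest falls were in genes with no shared list. Jakmip3 went from 80.4, 71 and 79 to 0.92, 0.728 and 0.722 CPM (-6.64 ± 0.18, adjusted p = 1.17e-05). Kctd14 went from 747, 634 and 646 to 21.4, 17.6 and 4.11 CPM (-5.6 ± 0.64), with replicate 3 the lowest. Srcin1, an adaptor that inhibits SRC kinase, went from 167, 160.5 and 195 to 6.01, 5.61 and 4.58 CPM (-5.06 ± 0.18). Each of these was low in all libraries of 4 h. Cacna1a, a calcium channel subunit, went from 374, 308 and 338 to 12.7, 16.1 and 12.2 CPM (-4.69 ± 0.19), and Mycl, of the MYC family, from 486, 473 and 441 to 16.8, 29.4 and 10.8 (-4.66 ± 0.39). Mmd2, Fndc5, Nat8f3, Fam81a and Septin4 made up the 10, at -4.77 to -4.25.

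Genes that followed the oocyte sum over all 18 libraries, beyond the group means (positive coefficient, adjusted p under 0.05), numbered 2833 among those tested. Of them 167 rose and 18 fell, both smaller shares than the 13.8% and 17.0% over all genes tested. Outside them, 2304 rose and 3020 fell. The 5 largest of the 18 falls were Pdgfb (-2.68 ± 0.26), Npas3 (-2.06 ± 0.44), Gulo (-1.97 ± 0.46), Abcc3 (-1.78 ± 0.39) and Ctnna2 (-1.59 ± 0.28). Pdgfb, a growth factor gene, was at 34.9, 36.5 and 36.8 CPM at 0 h and 5.25, 4.16 and 8.14 at 4 h, with replicate 3 of 4 h the highest of its group, as it is for the oocyte sum. The calls of Abcc3 (adjusted p 0.0512 without replicate 1 of 4 h) and Gulo (0.0602, 0.0541 and 0.0679 without replicate 2 or 3 of 0 h or replicate 1 of 4 h) were lost without single libraries.

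Mural granulosa cells were compared to show where the 2 cell types differed in their change. The difference of the changes (cumulus minus mural, log2) was tested over the 12 libraries of 0 h and 4 h, and 1564 of 19387 genes were called (8.07%), 704 positive and 860 negative. With library totals, 64.5% of the called differences were positive in place of 45.0%, and the median difference of all genes was 0.25 in place of 0.08. Ptx3 rose more in cumulus cells, where it reached 3076 ± 716 CPM against 581 ± 150.4 in mural cells (difference 3.09 ± 0.57, adjusted p = 0.00627). Ptger2 rose in cumulus cells and in mural cells was at 3.06 ± 0.543 and 3.53 ± 0.201 CPM (2.59 ± 0.36, adjusted p = 0.00103). Cyp19a1 went from 734 ± 145 to 158 ± 33.3 CPM in mural cells and was not called in cumulus cells (2.17 ± 0.34, adjusted p = 0.00215).

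Star and Snap25 rose less in cumulus cells. Star reached 133 ± 35.6 CPM against 3112 ± 711 in mural cells (-2.0 ± 0.36, adjusted p = 0.00488), and Snap25 27.9 ± 3.75 against 486 ± 45.3 (-4.42 ± 0.57, adjusted p = 0.000748). Runx1 rose less as well (-1.8 ± 0.31, adjusted p = 0.00409). Slc38a3 fell more in cumulus cells, to 17.1 ± 7.5 CPM against 104 ± 24.9 (-2.29 ± 0.45, adjusted p = 0.00977). Areg (7.19 ± 1.74, adjusted p = 0.041) had 0 counts in cumulus cells at 0 h, so its difference depends on how 0 is fitted. Its call was lost without any 1 of the cumulus or mural libraries of 0 h, without replicate 1 or 3 of cumulus 4 h and without replicate 3 of mural 4 h (adjusted p 0.0517 to 0.145). It was also lost without both libraries that stand apart (adjusted p = 0.224), with voom (0.223), without the filter (0.118) and with the oocyte covariate (0.0792). Dusp6 rose more in cumulus cells (2.24 ± 0.54, adjusted p = 0.029). That call was lost without replicate 2 or 3 of cumulus 0 h, replicate 1 of cumulus 4 h, any 1 of the mural libraries of 0 h or replicate 1 or 3 of mural 4 h (adjusted p 0.0527 to 0.0821). It was also lost without the filter (adjusted p = 0.0764).

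The largest positive differences beside Areg were those of Aldh1a3 (5.56 ± 0.5), Flnc (5.49 ± 0.53), Lipg (4.57 ± 0.5) and Chrna4 (4.47 ± 0.6). Flnc, the actin crosslinker filamin C, went from 0.0546, 0.32 and 0.138 to 125, 96 and 68.7 CPM in cumulus cells and from 8.1 ± 2.5 to 95.5 ± 6.68 in mural cells. Lipg, a lipase of the vessel wall, went from 1.47, 1.4 and 0.551 to 55.2, 53.1 and 36 CPM and from 30.3 ± 10.8 to 54.4 ± 5.7. Both were below the mural level at 0 h and lay around it at 4 h. Aldh1a3 ended above it, at 33.2 ± 12.5 against 6.08 ± 1.23 CPM.

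Among the largest negative differences, some genes changed in opposite directions. Abcc2, an export pump, went from 15.1, 8.64 and 14.4 to 2.71, 3.49 and 1.36 CPM in cumulus cells and from 9.44 ± 0.748 to 80 ± 10.9 in mural cells (-5.41 ± 0.42, adjusted p = 2.71e-05). Rims4, a vesicle release regulator, went from 56.8, 48.6 and 43.6 to 18.8, 17.2 and 11 CPM and from 35.7 ± 2.62 to 319 ± 34.8 (-4.81 ± 0.27, adjusted p = 2.04e-06). Tnfaip3, an inhibitor of NF-kB, was not called in cumulus cells, at 3.6, 5.0 and 6.18 and 2.38, 3.0 and 0.778 CPM, and went from 2.27 ± 0.137 to 21.8 ± 9.33 in mural cells (-4.52 ± 0.62). Pthlh rose in cumulus cells to 5.4 ± 0.853 CPM and in mural cells to 54.9 ± 19.8 (-5.3 ± 0.63). Cyp17a1, an androgen enzyme of theca cells, had 0 counts in cumulus cells at 4 h and fell there at least 22.38-fold. Its difference, cumulus minus mural, was -5.44 ± 1.21. That difference was not called without replicate 3 of cumulus 4 h (adjusted p = 0.0711), without both libraries that stand apart (0.139) or with voom (0.0803).

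**Figure D5:**
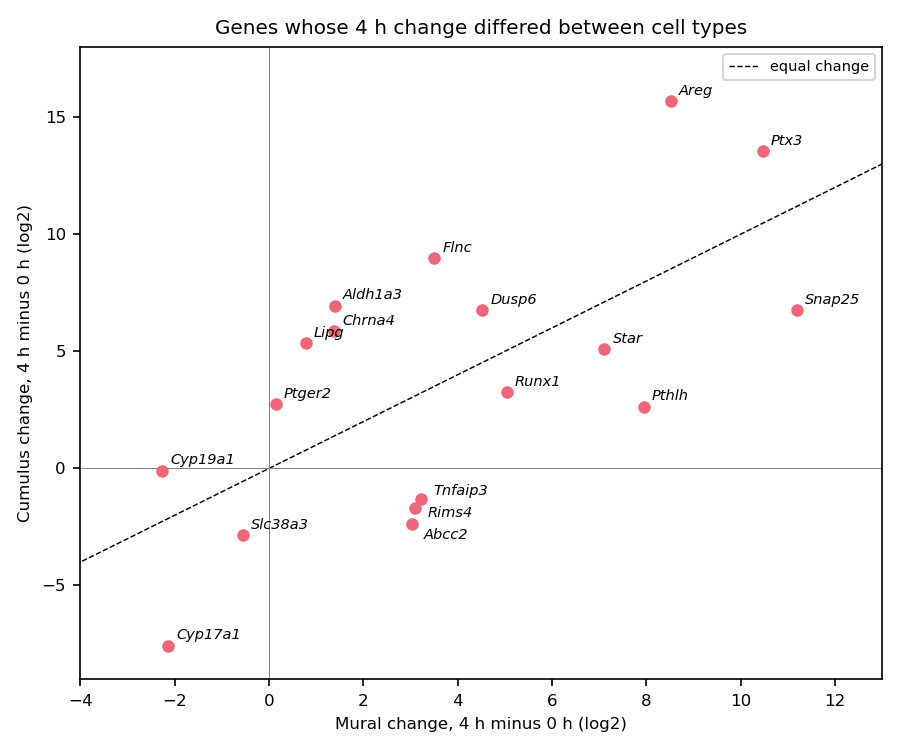
Log2 change from 0 h to 4 h in cumulus cells (vertical axis) against that in mural cells (horizontal axis) for the 18 key or most different genes called for a difference. Points above the dashed line of equal change, such as Ptx3, rose more or fell less in cumulus cells, and Abcc2, Rims4 and Tnfaip3 lie below 0 in cumulus cells and above 0 in mural cells.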

How the data were processed

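Values were the deposited raw counts of uniquely assigned reads per gene (41325 entries), made with stranded mRNA libraries per the labels and, per the series' design text, aligned and counted by the authors in CLC Genomics Workbench. The submitters' processing notes name GRCm38. Which version, annotation and strand option they used is not given in the sources used here, so overlapping genes are uncertain.

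Here genes passing a minimum count of 10 (17851) were scaled with TMM factors (trimmed mean of M values) and fitted in R 4.3.3 with edgeR 4.0.16 (quasi-likelihood, robust, 6 libraries, Benjamini-Hochberg adjustment, threshold 0.05). The cell type difference is an interaction term over 12 libraries. Only the groups compared entered each fit. CPM use TMM factors over 18 libraries. Alternatives used limma 3.58.1, DESeq2 1.42.0, other scalings, filters and left-out libraries. The fits were tested on simulated counts drawn independently for each gene, so oocyte RNA differences between libraries were not part of that test.

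Members and gene lists were chosen with earlier results of these data known. Named genes are 32 key genes, the 10 largest rises and falls at 20 CPM or more without overlap, clone names or oocyte-linked genes, 5 oocyte-linked falls, up to 4 called members with the largest change per list, and the called key and 5 plus 5 largest differences. List members beside these, and markers, were named after their values were seen. Intervals and floors cover counting error only.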

Additional observations from a re-analysis of the deposited data

Results flagged for a closer look

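The test of the difference between the cell types' changes (cumulus minus mural, log2) marked 18 named genes. Positive differences were those of Areg (7.19), Aldh1a3 (5.56), Flnc (5.49), Lipg (4.57), Chrna4 (4.47), Ptx3 (3.09), Ptger2 (2.59), Dusp6 (2.24) and Cyp19a1 (2.17). Negative ones were those of Cyp17a1 (-5.44), Abcc2 (-5.41), Pthlh (-5.3), Rims4 (-4.81), Tnfaip3 (-4.52), Snap25 (-4.42), Slc38a3 (-2.29), Star (-2.0) and Runx1 (-1.8). The values of Areg and Cyp17a1 depend on how groups with 0 counts are fitted.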

How the results depend on the processing

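In every alternative no gene called in the main analysis was called in the other direction. The 5509 calls (2471 up, 3038 down) became 9328 (4445 and 4883) with voom quality weights, 9532 (4987 up) with all 18 libraries in the fit and 9346 (4961 up) with the oocyte covariate beside them. Without both libraries that stand apart 3877 were up. With 1 library left out the calls ran from 3432 to 6778, those up from 1544 to 3118 and those down from 1888 to 3660. The 1564 differences became 2445 with DESeq2 (1058 positive, 1387 negative), 5008 with voom (2656 and 2352), 2469 without oocyte-linked genes (1216 positive) and 2865 without both libraries (1650 positive). Positive ones were 1220 with library totals and 1135 with the oocyte covariate. With 1 library left out the differences ran from 914 to 2590, positive from 395 to 1305 and negative from 502 to 1285. Fos changed sign with voom (1.40), the replicate block (0.58), the oocyte covariate (1.72), without both libraries (2.03) and with 18 libraries and the covariate (1.63), and ran from -0.76 to 1.59 with 1 library left out. Cyp19a1 changed sign with the covariate (0.11), without both libraries (0.11) and with 18 libraries and the covariate (0.089), and ran from -0.51 to 0.019 with 1 left out. Amh (0.021) and Gja1 (0.069) did so without both libraries. The causes were not tested. Deviations of same-numbered cumulus libraries of 0 h and 4 h had correlations of 0.42, -0.52 and 0.57, and those of differently numbered ones ran from -0.70 to 0.66. Whether the numbers pair the libraries cannot be told from this, since both kinds of pair reached such values. A replicate block gave 5048 calls and 1412 differences. Of the named genes' values, 2246 stayed on their side of the threshold, 60 lost a call and 9 gained one. Another 13 changed sign, and in 2 of these, with the oocyte covariate and without both libraries, Fos was called higher. Of the values of the named differences, 371 stayed on their side and 25 lost a call. Counts of 26 gene lists moved by over 1.5 times, or to or from 0, in 13 lists with voom, 12 with all 18 libraries, 13 with the covariate beside them, 12 without both libraries, 9 with the oocyte covariate, 6 with library totals, 5 without the filter or without oocyte-linked genes, 2 with DESeq2, a minimum count of 50 or the replicate block, none with RLE factors and 7 to 13 with 1 library left out. List medians changed sign without both libraries for oocyte-dependent genes (0.021), cyclic GMP genes (-0.032) and ribosomal proteins (0.0084). Without oocyte-linked genes, that of gap junctions and other cell contacts did (-0.045). A level of 0 is bounded by 3 counts, 0.0600 to 0.0910 CPM in a library, and levels given below that bound rest on fewer than 3 counts.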
